A study of Mus musculus with 8 samples.

Results

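The genes described here encode the matrix metalloproteases (MMPs), the ADAMTS proteases and the tissue inhibitors of metalloproteases (TIMPs). They were chosen by symbol in the platform annotation (Mmp, Adamts or Timp followed by a number, with an optional a or b for Mmp), and each has 1 probe set on the array. This gave 43 of the 19505 genes with a symbol, namely 21 MMPs, 18 ADAMTS proteases and 4 TIMPs. Mmp15, Mmp27 and Adamts2 were not found by symbol among the annotated probe sets and were not analysed here.

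Gene expression was measured on arrays in uterus from 8 wild-type C57BL/6J mice, an inbred strain, on the morning of day 4.5 of pseudopregnancy, 1 mouse per array. The exposed group comprised 4 females that inhaled electronic cigarette aerosol (propylene glycol and vegetable glycerin at 55:45 with 24 mg/mL nicotine, without flavouring, device at 245 °C) during 3 hours of each exposure day, with 2 puffs delivered per minute. Exposure ran for 4 weeks ahead of mating, on 5 days of each week, and then daily until collection. The sham group comprised 4 females that breathed room air. All 8 had been mated to vasectomised males, so the uteri were in a hormonal state like that of early pregnancy and held no embryo. Values are deposited log2 expression values, differences are exposed minus sham on that scale. With 4 arrays in each group, precision is limited by their number.

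MMPs are zinc-dependent endopeptidases that are made as inactive precursors and cleave collagens, gelatin, laminin, fibronectin and other matrix proteins once a propeptide is removed. ADAMTS proteases carry a related metalloprotease domain followed by thrombospondin repeats, and include enzymes that cut the large proteoglycans and enzymes that trim procollagen. TIMPs bind the active site of these enzymes and block it. In the uterus the matrix of stroma and muscle is rebuilt in every cycle and again around implantation, and both families and their inhibitors are made there.

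The arrays matched the labelled tissue. All 8 uterus identity genes on the list (among them Pgr, Esr1 and Hoxa10) were bright, with list means of 9.44 to 9.68 in exposed and 9.39 to 9.62 in sham mice. Each array's mean correlation with the other 7 was lowest in exposed mice 4 (0.977) and 2 (0.982), while the other 6 arrays had 0.986 to 0.987. These 2 mice stand apart, and several results below that rest on them are given with and without them. Fewer cells of a type and less RNA per cell cannot be told apart in such tissue.

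As a measure of how bright a probe set is for a gene not looked for in the uterus, 1412 probe sets of olfactory and vomeronasal receptors were used, whose means over the 8 mice had a median of 4.35 and a 95th percentile of 6.15. Of the 43 genes, 15 had a mean below 6.15 and are called dim. They were 10 of 21 MMPs (Mmp1a, Mmp1b, Mmp7, Mmp8, Mmp10, Mmp12, Mmp13, Mmp20, Mmp21 and Mmp24), 4 of 18 ADAMTS genes (Adamts8, Adamts13, Adamts17 and Adamts18) and Timp4. In 12 genes all 8 values lay below 6.15, in 25 all 8 lay above it, and 6 had values on both sides. The collagenases Mmp1a, Mmp1b, Mmp8 and Mmp13 were all dim. Brightness also depends on the probes, so values are compared between mice and not between genes.

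**Figure D1:**
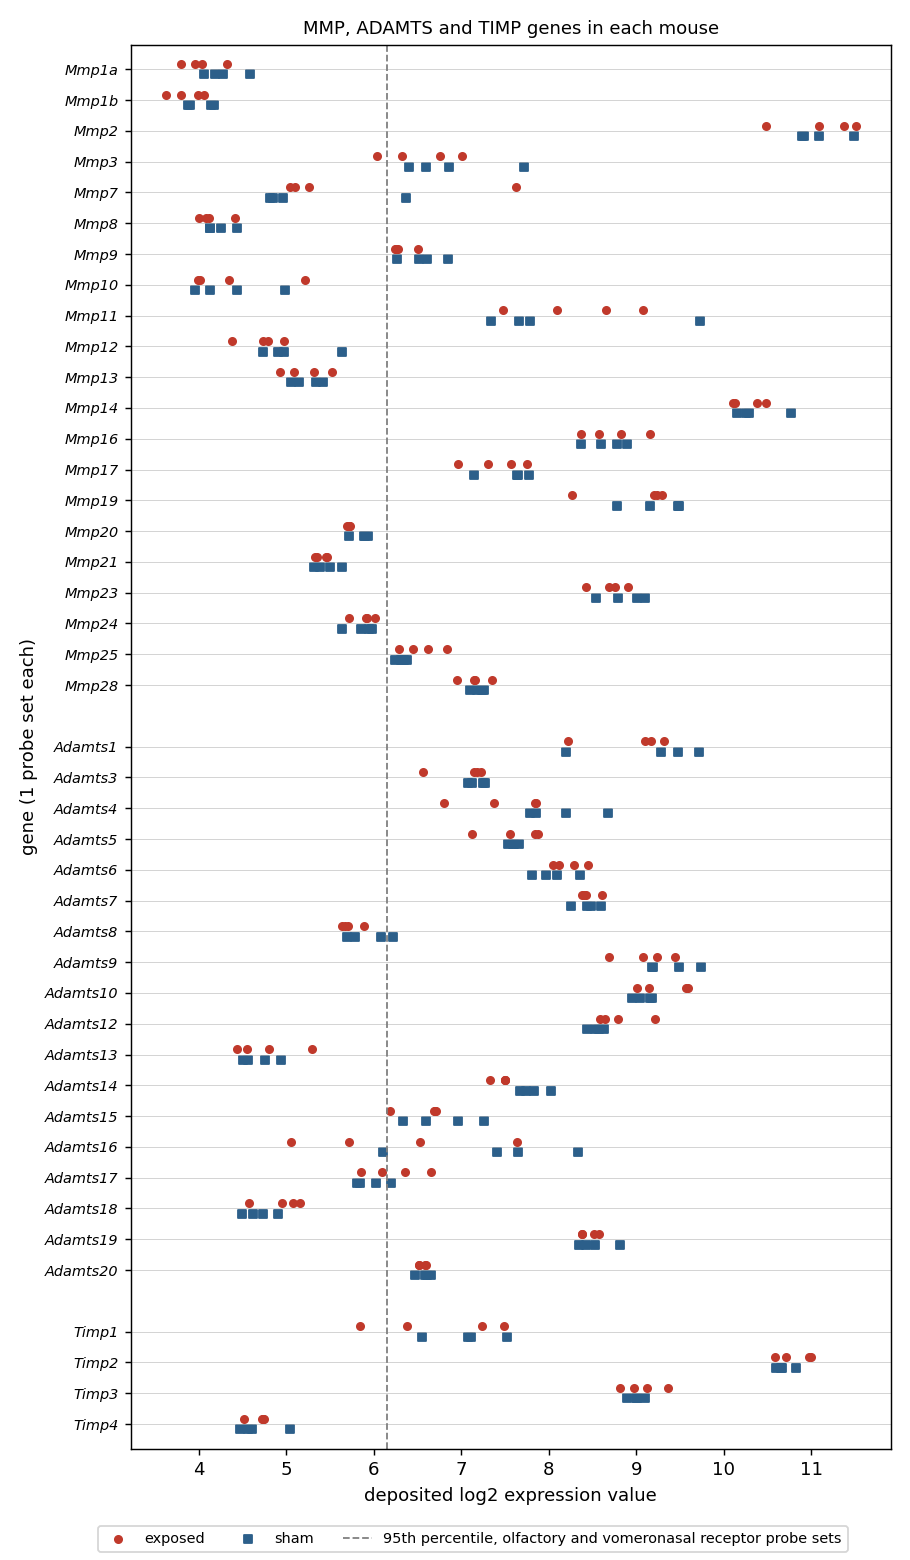
Deposited log2 expression values (x axis) of the 43 genes in each mouse, exposed mice as circles above sham mice as squares; the dashed line is the 95th percentile of olfactory and vomeronasal receptor probe sets (6.15). The values of exposed and sham mice overlap in 42 genes, and in Adamts14 the 4 exposed values lie below the 4 sham values.

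With p-values from limma adjusted over all 22206 probe sets by Benjamini-Hochberg, 0 of the 43 genes passed 0.05, as did 0% of all probe sets (smallest adjusted p among the 43 genes 0.838). At an unadjusted p under 0.05, 0 of the 43 had a higher mean in exposed mice, against 2.91% of all probe sets, and 2 had a lower mean (Adamts14 and Adamts4), against 2.5% of all probe sets. In 1 gene, Adamts14, the 4 exposed values lay below the 4 sham values (1.35% of all probe sets), and in 0 genes they lay above them (1.38% of all probe sets). The members' counts were near this background. Of the 43 differences, 18 were above and 25 below 0, with a median of -0.06, beside a median of 0.00141 over all probe sets. Without exposed mice 2 and 4, 12 were above and 31 below 0, with a median of -0.06. The median was -0.08 for MMPs, -0.04 for ADAMTS genes and 0.03 for TIMPs.

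Most differences were small. In 33 of the 43 genes (76.7%) the means were within 1.2-fold, beside 89.7% of all probe sets, and 2 genes (4.65%), Adamts16 and Adamts4, differed by more than 1.5-fold, beside 1.09% of all probe sets. The spread between mice was also larger in the 43 genes than over all probe sets. The precision differed between genes. In 37 genes the 95% interval of the difference lay within a 2-fold change in either direction. In the other 6 (Mmp3, Mmp7, Mmp11, Adamts4, Adamts16 and Timp1) it reached past a 2-fold change. For these genes, 4 mice in each group did not bound the change below 2-fold. The 37 genes include every dim gene but Mmp7, and the 33 genes within 1.2-fold include dim genes too. For a dim gene a small difference or a narrow interval may not bound the change in its RNA.

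**Figure D2:**
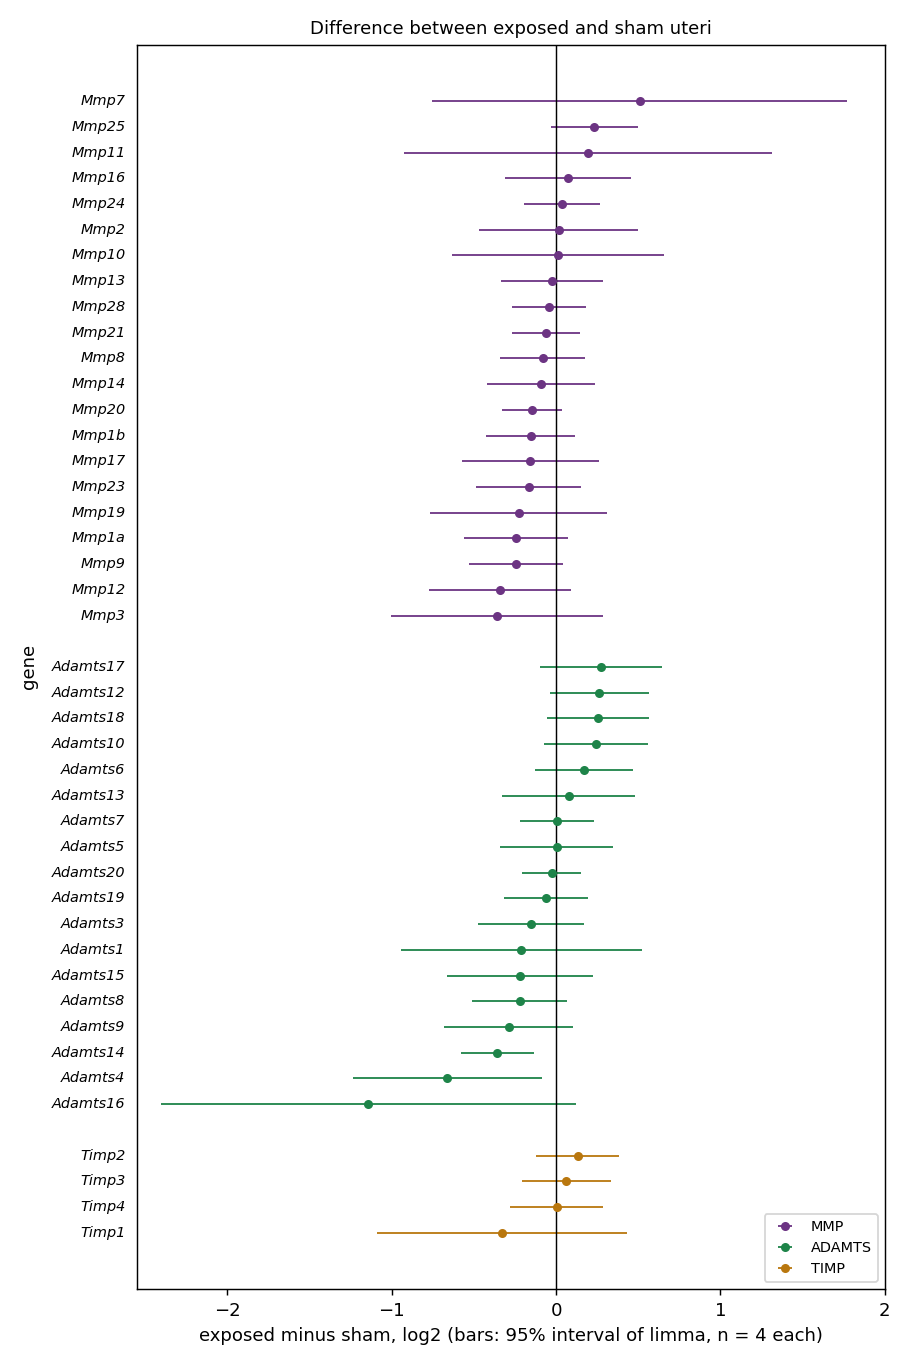
Difference between the means of exposed and sham mice (exposed minus sham, log2, x axis) for each gene, ordered within MMPs, ADAMTS genes and TIMPs, with limma's 95% interval as bars (4 mice in each group). The intervals of Adamts14 and Adamts4 lie below 0, and the widest are those of Adamts16, Mmp7 and Mmp11.

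Among the ADAMTS genes, the procollagen N-propeptidases, which cut the amino-terminal propeptide from fibrillar procollagens before fibrils form, were represented by Adamts14 and Adamts3. Adamts14 had 7.50, 7.33, 7.50 and 7.50 in exposed mice, against 7.67, 7.74, 8.02 and 7.83 in sham mice. Every exposed value was below every sham value, and 3 of the exposed values were nearly the same. The means were 7.46 ± 0.09 and 7.81 ± 0.15 (SD, n = 4 each), a 1.28-fold lower mean after exposure (difference -0.36 ± 0.10 SE, limma unadjusted p = 0.00477, adjusted p = 0.838). Without exposed mice 2 and 4 the difference was -0.31. Over the 8 fits that leave out 1 mouse it ran from -0.41 to -0.29, and it kept an unadjusted p under 0.05 in each of them.

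Adamts3, a relative of Adamts14, had 7.18, 6.56, 7.14 and 7.22 in exposed mice and 7.12, 7.27, 7.25 and 7.07 in sham mice. Exposed mouse 2 was low and the other 3 lay among the sham values. The difference of -0.15 ± 0.15 (SE) did not pass (limma adjusted p = 0.863), and without exposed mouse 2 it was -3.83e-05.

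The proteoglycanases, which cleave aggrecan, versican and related proteoglycans, had lower means in 6 of 7 genes (median difference -0.22; 5 of 7 and -0.06 without exposed mice 2 and 4), with 1 gene at an unadjusted p under 0.05. That gene was Adamts4, known as aggrecanase-1. It had 7.84, 6.80, 7.85 and 7.37 in exposed mice, against 8.67, 8.20, 7.85 and 7.78 in sham mice. Exposed mice 1 and 3 lay at the level of sham mice 3 and 4, and exposed mouse 2 was the lowest of all. The means were 7.46 ± 0.49 and 8.13 ± 0.41 (SD, n = 4 each), 1.58-fold lower after exposure (difference -0.66 ± 0.26 SE, limma unadjusted p = 0.0282, adjusted p = 0.838). The unadjusted p was above 0.05 without exposed mouse 2 (0.0761, difference -0.44), without exposed mouse 4 (0.0587, -0.63), without sham mouse 1 (0.0855, -0.48) and without sham mouse 2 (0.0598, -0.64). Without both exposed mice 2 and 4 the difference was -0.28 (limma unadjusted p = 0.256).

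Adamts1, a versican-cleaving protease that progesterone induces in the mouse ovary, had 9.10, 8.22, 9.31 and 9.17 in exposed mice and 9.71, 9.48, 9.28 and 8.19 in sham mice. The 2 low values, of nearly the same size, came from exposed mouse 2 and sham mouse 4, 1 in each group. The difference was -0.21 with a 95% interval of -0.95 to 0.52. It was 0.03 without exposed mouse 2 and -0.54 without sham mouse 4.

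Adamts9, which also cleaves versican, had 9.24, 8.69, 9.44 and 9.08 in exposed mice and 9.49, 9.74, 9.19 and 9.18 in sham mice. Exposed mouse 2 was again the lowest. The Adamts9 difference of -0.29 ± 0.18 (SE) was -0.15 without exposed mouse 2 and -0.06 without exposed mice 2 and 4. Adamts5, or aggrecanase-2, had 7.84, 7.12, 7.87 and 7.55 in exposed mice and 7.53 to 7.66 in sham mice. Its means were 7.60 and 7.59, while its SD was 0.35 in exposed and 0.05 in sham mice. Exposed mice 1 and 3 lay above all sham mice, exposed mouse 2 below them and exposed mouse 4 among them. Without mice 2 and 4 the difference was 0.27, with a limma unadjusted p of 0.0194. That fit keeps only exposed mice 1 and 3, the ones above all sham mice, so its p follows from which mice were left out.

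Adamts8 was dim (5.63 to 5.89 in exposed and 5.69 to 6.22 in sham mice, difference -0.22 ± 0.13 SE). Adamts15 had 6.69, 6.70, 6.71 and 6.18 in exposed mice and 6.96, 7.26, 6.60 and 6.33 in sham mice, with mouse 4 the lowest of each group. The difference was -0.22 ± 0.20 (SE), and -0.06 without sham mouse 2. Adamts20, the gene mutated in belted mice, which lack pigment in a band of skin, was steady at 6.51 to 6.60 in exposed and 6.47 to 6.65 in sham mice.

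Adamts16 had the largest difference of the 43 genes and one of the largest spreads. It had 7.63, 5.71, 6.53 and 5.05 in exposed mice, against 7.41, 7.65, 8.33 and 6.10 in sham mice. Exposed mouse 1 lay among the sham mice, and sham mouse 4 lay among the exposed mice. The means were 6.23 ± 1.11 and 7.37 ± 0.94 (SD, n = 4 each), 2.21-fold lower after exposure, and the test was not passed (difference -1.14 ± 0.57 SE, limma unadjusted p = 0.0714, adjusted p = 0.838). Without exposed mice 2 and 4 the difference was -0.29. It was -1.61 (limma unadjusted p = 0.00979) without exposed mouse 1, -1.57 (unadjusted p = 0.0145) without sham mouse 4 and -0.75 (unadjusted p = 0.202) without exposed mouse 4. The fits without exposed mouse 1 and without sham mouse 4 each leave out a mouse that lay with the other group, which widens the difference. With the replicate number as a block the limma unadjusted p was 0.00971. Same-numbered mice share only a number, and mouse 4 was the lowest of each group, so this p has no basis in the design.

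Adamts7 and Adamts12, which cleave cartilage oligomeric matrix protein, had differences of 0.01 and 0.26. Adamts12 had 8.64, 8.58, 8.79 and 9.21 in exposed mice and 8.63, 8.43, 8.57 and 8.53 in sham mice, with exposed mouse 4 highest (limma unadjusted p = 0.0802, and a difference of 0.13 without that mouse). Adamts10, a partner of fibrillin microfibrils, had 9.01, 9.59, 9.14 and 9.57 in exposed mice and 8.95 to 9.18 in sham mice. Exposed mice 2 and 4 were the high ones, and the difference of 0.24 ± 0.14 (SE) became -0.01 without both. Adamts13, which cleaves von Willebrand factor, was dim (4.43 to 5.29 in exposed and 4.50 to 4.94 in sham mice). The remaining ADAMTS genes, Adamts6, Adamts17, Adamts18 and Adamts19, had differences between -0.06 and 0.27 with limma adjusted p of 0.838 or more.

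**Figure D3:**
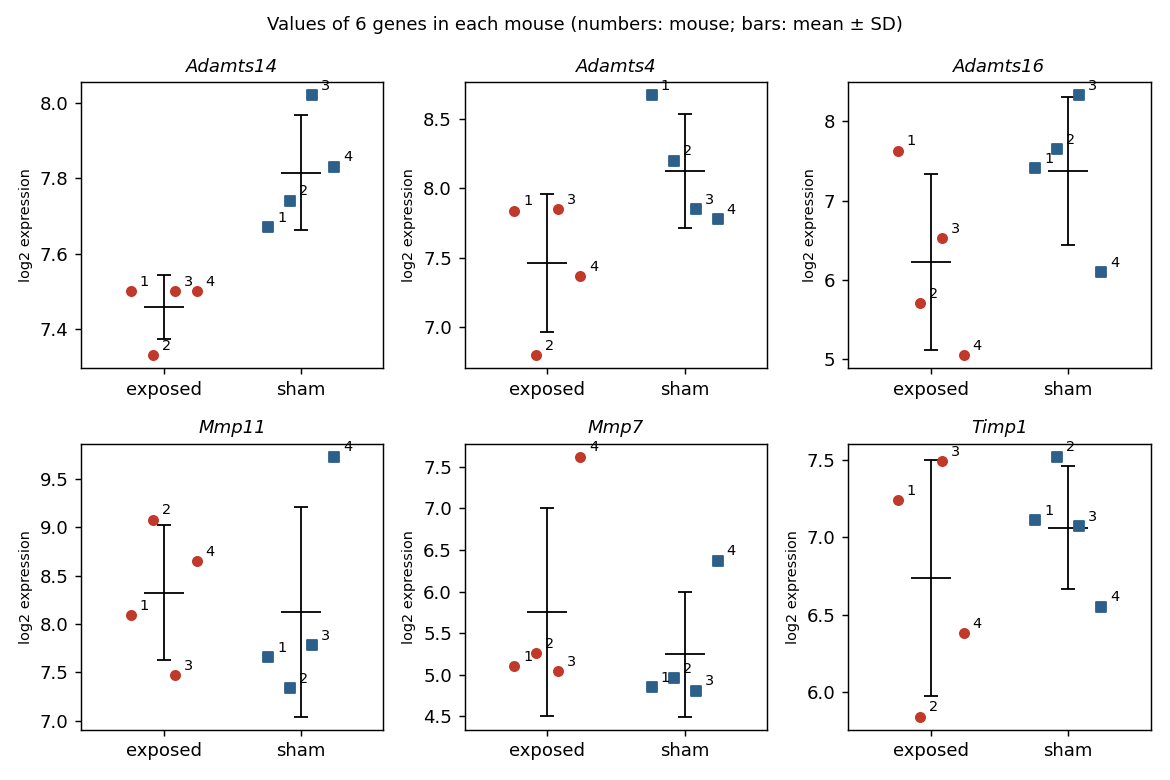
Log2 expression (y axis, 1 scale per panel) of Adamts14, Adamts4, Adamts16, Mmp11, Mmp7 and Timp1 in exposed mice (circles) and sham mice (squares), numbered by mouse, with mean ± SD of 4 mice. The groups are apart in Adamts14 alone; in the other panels exposed mouse 2 or 4, or sham mouse 4, lies at an end of its group.

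Among the MMPs, the gelatinases and their surface activator came first by function. Mmp2, gelatinase A, whose precursor is activated at the cell surface by the membrane protease encoded by Mmp14 together with Timp2, was bright in every mouse. It had 11.09, 11.37, 10.48 and 11.51 in exposed mice and 10.89, 10.92, 11.09 and 11.49 in sham mice. Mouse 4 was the highest of each group, and exposed mouse 3 was the lowest of all. The difference was 0.02 with a 95% interval of -0.47 to 0.50, and -0.31 without exposed mice 2 and 4.

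Mmp14 had 10.48, 10.38, 10.10 and 10.13 in exposed mice and 10.25, 10.15, 10.29 and 10.77 in sham mice. Sham mouse 4 was the highest, and the other 7 mice lay within 10.10 to 10.48. The difference was -0.09 (95% interval -0.42 to 0.24), and 0.04 without sham mouse 4.

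Mmp9, gelatinase B, which neutrophils store and release, had 6.25, 6.24, 6.50 and 6.27 in exposed mice and 6.52, 6.26, 6.61 and 6.85 in sham mice. Exposed mice 1 and 2 lay just below the lowest sham mouse and exposed mice 3 and 4 within the sham range, and the exposed values were close to the bound of 6.15. The difference was -0.24 ± 0.13 (SE, limma unadjusted p = 0.0857, adjusted p = 0.838), and the unadjusted p was 0.0165 without sham mouse 2 and 0.0498 without exposed mouse 3. The neutrophil marker list (9 genes measured, 4 of them dim) had means of 5.89, 5.95, 5.76 and 5.90 in exposed mice and 6.01, 5.85, 5.89 and 6.15 in sham mice, with 4 genes higher and 5 lower after exposure. Of these genes, 1, Retnlg, a secreted protein of mouse neutrophils, was at an unadjusted p under 0.05, with 6.86, 7.48, 6.92 and 6.28 in exposed mice, all below the sham mice at 8.04, 7.71, 7.52 and 7.76 (difference -0.87 ± 0.22 SE, limma unadjusted p = 0.00255, adjusted p = 0.838). Among all probe sets, 2.5% were lower at that p, and in 1.35% every exposed value lay below every sham value. Sham mouse 4 was the highest for both Mmp9 and the neutrophil list. The part of neutrophils in the Mmp9 values was not tested.

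The other membrane-bound MMPs gave no call. Mmp16 (difference 0.07), Mmp17 (-0.16) and Mmp24 (0.04) overlapped between groups. Mmp25, anchored to the membrane by a lipid and known from human leukocytes, had 6.45, 6.29, 6.62 and 6.84 in exposed mice and 6.31, 6.34, 6.24 and 6.38 in sham mice. Exposed mouse 2 lay among the sham mice and the other 3 above them (difference 0.23 ± 0.12 SE, limma unadjusted p = 0.0778). Leaving out exposed mouse 2, the only one that overlapped, gave a difference of 0.32 and an unadjusted p of 0.0178, which follows from that choice.

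Mmp11, or stromelysin-3, a protease of stromal cells in tissues under remodelling, varied widely in both groups. It had 8.09, 9.08, 7.47 and 8.65 in exposed mice and 7.66, 7.34, 7.78 and 9.73 in sham mice. Sham mouse 4 and exposed mice 2 and 4 were the 3 highest. The difference of 0.20 had a 95% interval of -0.92 to 1.31, and it was 0.73 without sham mouse 4 and -0.35 without exposed mice 2 and 4. Mmp11 and Adamts16 ran opposite ways in these animals, since the 3 mice highest for Mmp11 were the 3 lowest for Adamts16.

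Of the 43 genes, 9 are MMPs that lie together on mouse chromosome 9 (RefSeq genes, GRCm38.p6), in the order Mmp13, Mmp12, Mmp1b, Mmp3, Mmp1a, Mmp10, Mmp8, Mmp20 and Mmp7. The promoters of several MMP genes of this cluster are known from studies of other cells to hold a site for AP-1, the Fos and Jun transcription factor, close to the start. The letters TGAGTCA or TGACTCA, which read as each other on the opposite strand so that both strands are covered, were searched in the RefSeq promoter windows (250 bases before to 50 after each annotated start). They were found in 7 of these 9 genes (77.8%), in 0 of the other 20 members with a promoter in the table, and in 5.95% of all 27025 genes. The 14 members without an entry were not searched. The 100 bases before the start are shown for the 7 genes because they carry these letters, which the other searched members lacked. They are printed 5′ to 3′ on the gene's strand, with the AP-1 letters in capitals, for the RefSeq windows of GRCm38.p6.
Mmp13 (chr9:7272414-7272513, plus strand): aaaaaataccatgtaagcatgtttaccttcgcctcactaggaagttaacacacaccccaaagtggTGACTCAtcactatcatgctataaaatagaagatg
Mmp12 (second annotated start, chr9:7347274-7347373, plus strand): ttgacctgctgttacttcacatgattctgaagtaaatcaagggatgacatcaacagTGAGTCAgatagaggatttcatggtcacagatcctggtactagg
Mmp1b (chr9:7388027-7388126, minus strand): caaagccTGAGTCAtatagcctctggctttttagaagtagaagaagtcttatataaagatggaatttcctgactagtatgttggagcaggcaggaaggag
Mmp3 (chr9:7445722-7445821, plus strand): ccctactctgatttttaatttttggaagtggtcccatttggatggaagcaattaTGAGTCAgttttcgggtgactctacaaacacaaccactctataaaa
Mmp1a (chr9:7464041-7464140, plus strand): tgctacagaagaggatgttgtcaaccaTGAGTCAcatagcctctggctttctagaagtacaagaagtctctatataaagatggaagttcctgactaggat
Mmp10 (chr9:7502242-7502341, plus strand): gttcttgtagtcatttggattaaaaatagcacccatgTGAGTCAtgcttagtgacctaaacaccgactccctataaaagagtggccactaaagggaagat
Mmp7 (chr9:7691990-7692089, plus strand): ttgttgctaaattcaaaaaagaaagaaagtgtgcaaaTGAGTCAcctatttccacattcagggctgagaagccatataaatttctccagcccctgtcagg

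The motif began between 35 bases (Mmp13) and 93 bases (Mmp1b) before the annotated start. A match is a description of the letters and says nothing about binding in these uteri.

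Of the 7 genes with these letters, 6 were dim and Mmp3 was not. In 6 of the 7 (all but Mmp1a) sham mouse 4 had the highest of the 4 sham values, and in 0 of the 2 without them, Mmp8 and Mmp20, did it do so, beside 27.1% of all probe sets. The same held for 7 of the 12 MMPs not on chromosome 9, so it was not particular to genes with these letters. Among the exposed mice, mouse 4 was the highest in 3 of the 7, mouse 2 in 2, and mice 1 and 3 in 1 each.

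Mmp3, or stromelysin-1, which cleaves proteoglycans, laminin and fibronectin and can activate other MMPs, had 6.76, 6.32, 7.01 and 6.04 in exposed mice and 6.40, 6.86, 6.60 and 7.72 in sham mice. Sham mouse 4 was the highest and exposed mouse 4 the lowest. The difference was -0.36 ± 0.29 (SE). It was -0.09 without sham mouse 4 and -0.01 without exposed mice 2 and 4.

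Mmp7, or matrilysin, a small protease of epithelial cells, had 5.10, 5.26, 5.04 and 7.62 in exposed mice and 4.85, 4.96, 4.81 and 6.37 in sham mice. Mouse 4 was far above the others in each group, and the other 6 mice lay below 6.15. The difference of 0.51 ± 0.57 (SE) was -0.11 without exposed mouse 4 and 0.88 without sham mouse 4. The epithelial marker list (14 genes measured) was highest in exposed mouse 4, with means of 8.16, 8.08, 8.59 and 8.96 in exposed mice, against 8.40, 8.45, 8.41 and 8.34 in sham mice, where mouse 4 was the lowest. The high mean of exposed mouse 4 came from Prss28 (12.64), Prss29 (12.04) and Spink1 (12.22), which encode secreted proteins, while 7 of the 14 genes, among them Cdh1, Krt8 and Krt19, had their lowest exposed value in that mouse. In the epithelial list 3 genes were lower (Krt8, Cldn4 and Cldn7) and 0 higher at an unadjusted p under 0.05 in limma. The shares among all probe sets were 2.5% and 2.91%. Without exposed mice 2 and 4 the limma unadjusted p were 0.078 for Krt8, 0.203 for Cldn4 and 0.0258 for Cldn7. The list's part in the Mmp7 values was not tested. With the replicate number as a block, the limma unadjusted p for Mmp7 was 0.0258. Same-numbered mice share only a number, and mouse 4 was high in both groups, so this p has no basis in the design.

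Mmp10, or stromelysin-2, had 3.99, 5.21, 4.01 and 4.34 in exposed mice and 3.96, 4.13, 4.44 and 4.98 in sham mice, with exposed mouse 2 and sham mouse 4 highest. Mmp13, the main interstitial collagenase of rodents, had 4.93 to 5.52 in exposed and 5.05 to 5.42 in sham mice. Mmp8, the neutrophil collagenase, had 4.00 to 4.41 in exposed and 4.13 to 4.43 in sham mice. All 8 values of these 3 genes lay below 6.15, and their differences (0.01, -0.03 and -0.08) are those of dim probe sets. Mmp1a, Mmp1b, the macrophage elastase Mmp12 and the enamel protease Mmp20 were dim as well, with differences of -0.34 to -0.15.

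Of the remaining MMPs, Mmp19 had 9.24, 8.26, 9.20 and 9.29 in exposed mice and 9.48, 9.49, 9.15 and 8.78 in sham mice. Exposed mouse 2 and sham mouse 4 were the lowest of their groups, as for Adamts1. The difference of -0.23 was 0.02 without exposed mouse 2 and -0.005 without exposed mice 2 and 4. Mmp23, a protease anchored by its amino terminus, had 8.69, 8.76, 8.90 and 8.42 in exposed mice and 8.54, 8.79, 9.01 and 9.10 in sham mice (difference -0.17 ± 0.14 SE). Mmp21 and Mmp28, known as epilysin, differed by -0.06 and -0.04.

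Of the inhibitors, Timp2, which takes part in the activation of the Mmp2 product at low amounts and blocks it at high ones, had 10.71, 11.00, 10.58 and 10.97 in exposed mice and 10.60, 10.67, 10.65 and 10.82 in sham mice. Exposed mice 2 and 4 were the highest, and exposed mouse 3 the lowest. The difference was 0.13 (95% interval -0.12 to 0.39), and -0.04 without exposed mice 2 and 4. Timp3, which binds to the matrix and blocks ADAMTS proteases as well as MMPs, had 8.97, 9.36, 8.81 and 9.12 in exposed mice and 9.01, 8.89, 9.0 and 9.10 in sham mice, a difference of 0.06 (95% interval -0.21 to 0.33).

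Timp1, an inducible inhibitor, had 7.24, 5.84, 7.49 and 6.38 in exposed mice and 7.11, 7.52, 7.07 and 6.55 in sham mice. Exposed mice 2 and 4 and sham mouse 4 were the 3 lowest, the same mice that were highest for Mmp11. The difference of -0.33 ± 0.34 (SE) did not pass (limma adjusted p = 0.873). It was -0.03 without exposed mouse 2 and 0.30 without exposed mice 2 and 4. Timp4 was dim, with 4.52 to 4.74 in exposed and 4.47 to 5.04 in sham mice, and a difference of 0.0045.

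Enzyme and inhibitor were also set against each other within each mouse, as the difference of their log2 values, which can be compared between mice but says nothing of their relative amounts. Mmp2 minus Timp2 was 0.38, 0.36, -0.10 and 0.54 in exposed mice and 0.29, 0.25, 0.44 and 0.67 in sham mice. Mmp9 minus Timp1 was -0.98, 0.40, -0.98 and -0.11 in exposed mice and -0.59, -1.27, -0.46 and 0.30 in sham mice. The groups overlapped in both. Adamts4 minus Timp3 was -1.13, -2.56, -0.96 and -1.75 in exposed mice and -0.34, -0.69, -1.15 and -1.32 in sham mice, with exposed mice 2 and 4 below all others. Its difference was -0.73, and -0.17 without these 2 mice. For the other aggrecanase, Adamts5 minus Timp3, the difference was -0.06, and for Mmp14 minus Timp2 it was -0.22. These pairs were chosen after the values were seen and were not tested.

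The families differed in which mice lay at the ends. Within the sham group, mouse 4 had the highest value in 13 of 21 MMPs (61.9%, beside 27.1% of all probe sets) and the lowest in 8 of 18 ADAMTS genes (44.4%, beside 26.4%). Within the exposed group, mouse 2 had the lowest value in 9 of 18 ADAMTS genes (50%, beside 21.3%), among them Adamts1, Adamts3, Adamts4, Adamts5, Adamts9 and Adamts14. Exposed mouse 4 had the highest value in 9 of 21 MMPs (42.9%, beside 30% of all probe sets). Other mice lay at the ends as often. Exposed mouse 3 had the highest exposed value in 7 of 18 ADAMTS genes (38.9%, beside 20.3%). Sham mouse 1 had the lowest sham value in 9 of 21 MMPs (42.9%, beside 23.7%). Of the MMPs highest in sham mouse 4, Mmp1b, Mmp7, Mmp10, Mmp12, Mmp13 and Mmp24 were dim. The median SD between mice over the 43 genes was 0.255 in exposed and 0.222 in sham mice, beside 0.176 and 0.134 over all probe sets. The SD was larger in exposed mice in 24 of 43 genes (55.8%), beside 65.8% of all probe sets.

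**Figure D4:**
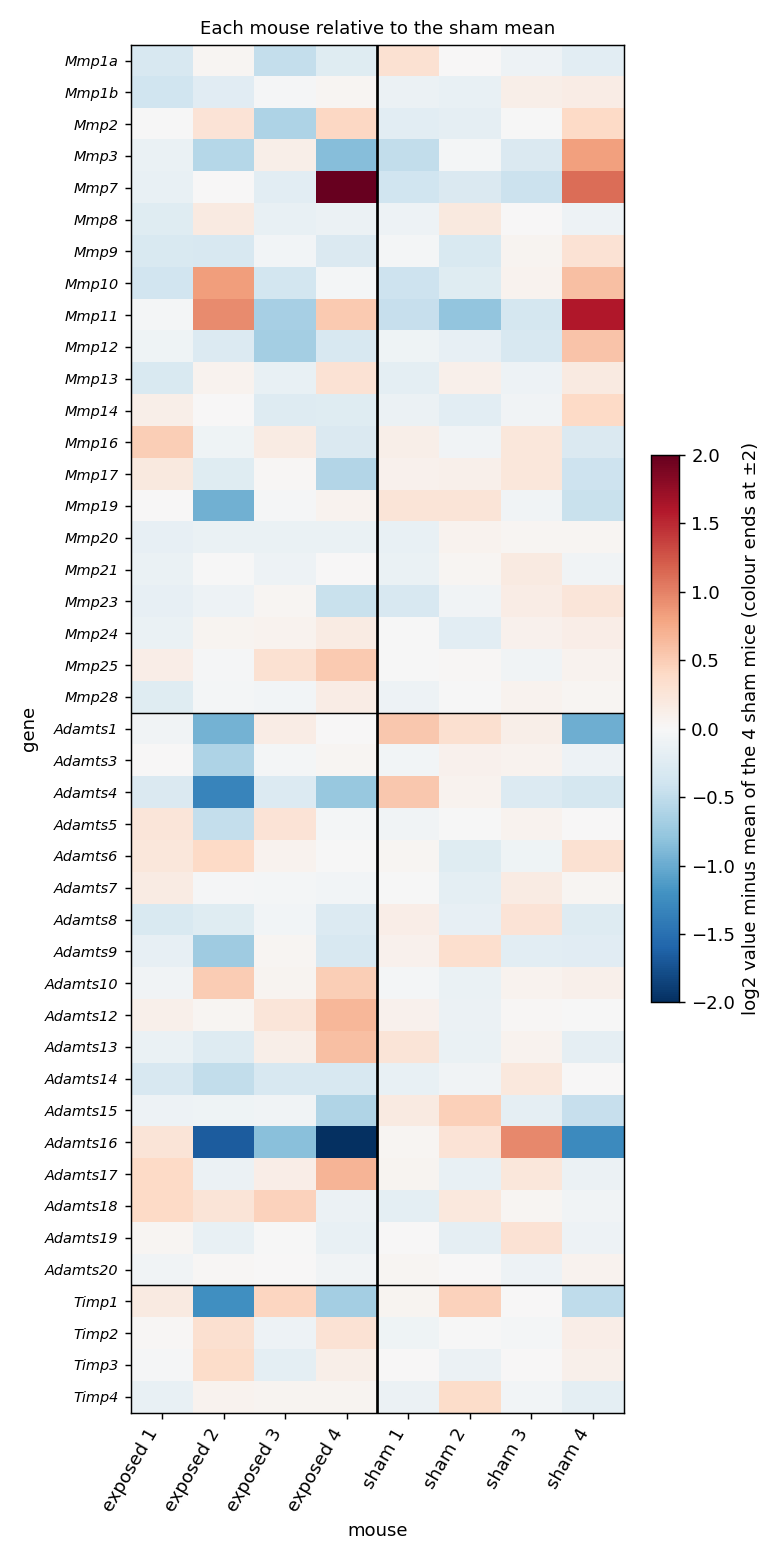
Log2 value of each gene (rows, MMPs above ADAMTS genes above TIMPs) in each mouse (columns, exposed left of sham) minus the mean of the 4 sham mice; the colours end at ±2, which Mmp7 and Adamts16 pass in exposed mouse 4. Exposed mouse 2 and sham mouse 4 share low Adamts1, Adamts16, Mmp19 and Timp1 and high Mmp10 and Mmp11. Over all probe sets, the deviations of these mice from their group means correlated at 0.435, the highest of any exposed and sham pair. Their likeness was thus not particular to the genes shown.

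Marker lists moved with some of these mice. The smooth muscle list (10 of 10 genes measured, 0 dim) had means of 10.85, 10.28, 10.85 and 10.65 in exposed mice and 11.00, 10.95, 11.00 and 10.60 in sham mice. Its 3 lowest mice were exposed mice 2 and 4 and sham mouse 4, the ones lowest for Timp1 and Adamts16, and 10 of its 10 genes had lower means after exposure (7 of 10 without exposed mice 2 and 4). Of these genes, 2 were at an unadjusted p under 0.05 in limma, Synm (0.0269) and Synpo2 (0.0151, groups without overlap), beside 2.5% lower among all probe sets. Without exposed mice 2 and 4 their unadjusted p were 0.134 and 0.121. The endothelium list (8 genes) had means of 8.60, 8.61, 8.91 and 8.98 in exposed mice and 8.89, 8.73, 8.49 and 8.31 in sham mice, with sham mouse 4 lowest. Of its 8 genes 8 had higher means after exposure (median 0.19, also 8 of 8 without exposed mice 2 and 4), with 0 at an unadjusted p under 0.05 in limma. The stroma list (8 genes) was lowest in exposed mouse 2 (10.23, against 10.49 to 10.61 in the other exposed mice and 10.59 to 10.63 in sham mice). Its genes went both ways in that mouse. Of the 8 genes, 5 had their lowest exposed value there, among them Col1a1 (9.95) and Col3a1 (11.08). Dcn (13.07) and Thy1 (9.19) had their highest exposed value there. The macrophage list (9 genes) was lowest in that mouse as well (7.06, against 7.36 to 7.80 in the other exposed mice and 7.51 to 7.70 in sham mice). The adipocyte list (8 genes, 6 dim) was 6.47 and 6.71 in exposed mice 1 and 2, 5.50 and 5.66 in exposed mice 3 and 4, and 5.58 to 5.87 in sham mice. At an unadjusted p under 0.05 in limma, the macrophage list held Cd163 (higher), and the adipocyte list held Cidec (higher) and Pparg (lower). The part of cell make-up in the values of the proteases and inhibitors was not tested.

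**Figure D5:**
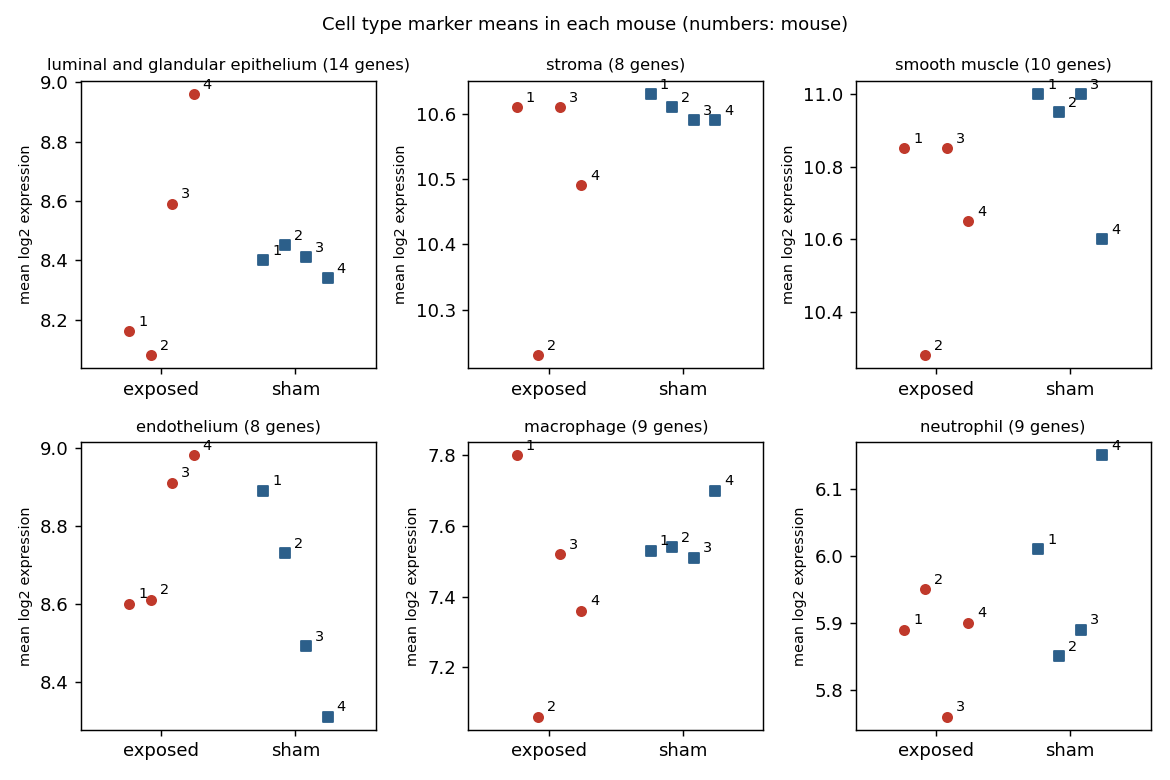
Mean log2 expression (y axis, 1 scale per panel) over the measured genes of 6 cell type marker lists in exposed mice (circles) and sham mice (squares), numbered by mouse. Exposed mouse 2 is lowest in the epithelium, smooth muscle, stroma and macrophage panels, and sham mouse 4 is low in the smooth muscle panel.

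Other genes of pericellular proteolysis gave few differences, and 0 passed an adjusted p of 0.05 in limma. As a background for the lists that follow, 2.91% of all probe sets were higher and 2.5% lower at an unadjusted p under 0.05. In 1.35% of all probe sets every exposed value lay below every sham value. Of 21 regulators of these enzymes (such as Reck, a membrane inhibitor of MMPs, and Bsg, an inducer of them), 14 had higher and 7 lower means, with 0 at an unadjusted p under 0.05 and a median of 0.06. Of 11 measured genes of plasminogen activation, 1 was at an unadjusted p under 0.05, Anxa2, a cell surface binding protein for plasminogen and its activator. It had 10.02, 8.95, 9.93 and 9.11 in exposed mice and 10.28, 10.24, 10.12 and 9.83 in sham mice, with exposed mice 2 and 4 far below the rest (difference -0.62 ± 0.24 SE, limma adjusted p = 0.838). Without these 2 mice the difference was -0.14 (unadjusted p = 0.344).

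Of 12 ADAM proteases, relatives that mostly shed proteins from the cell surface, Adam19 was at an unadjusted p under 0.05, with 7.72, 7.48, 7.67 and 7.60 in exposed mice and 7.96, 8.02, 7.78 and 7.92 in sham mice. Its groups did not overlap (difference -0.30 ± 0.09 SE, limma adjusted p = 0.838), and without exposed mice 2 and 4 the difference was -0.22 (unadjusted p = 0.0617). Of 7 astacin proteases and enhancers, 1 was higher and 1 lower at that p. Pcolce2, which speeds removal of the carboxy-terminal propeptide of procollagen, was dim, with 5.83, 6.76, 6.06 and 6.32 in exposed mice and 5.85, 6.01, 5.69 and 5.80 in sham mice (difference 0.41, and 0.11 without exposed mice 2 and 4). Mep1b was dim too, and its groups did not overlap (3.48 to 3.68 in exposed and 3.76 to 4.08 in sham mice). Of 12 cathepsins and cystatins, Ctsl, a lysosomal and secreted cysteine protease, had 9.62, 9.64, 9.40 and 9.83 in exposed mice and 9.33, 9.26, 9.23 and 9.55 in sham mice (difference 0.28 ± 0.11 SE, limma adjusted p = 0.838, and 0.17 without exposed mice 2 and 4).

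Of 19 matrix substrates, 16 had lower means after exposure (median -0.14; 12 lower and -0.07 without exposed mice 2 and 4) and 1 was at an unadjusted p under 0.05, the basement membrane collagen gene Col4a1 (8.58, 8.27, 8.60 and 8.49 in exposed mice, 8.83, 8.82, 8.64 and 8.61 in sham mice). Its groups did not overlap, nor did those of Col4a2, which encodes its partner chain, with 9.06, 8.43, 9.19 and 8.99 in exposed mice and 9.24 to 9.25 in sham mice (limma unadjusted p = 0.0538). Without exposed mice 2 and 4 the differences were -0.14 for Col4a1 and -0.12 for Col4a2. The collagen genes as a whole, substrates of several of these enzymes, were set beside the proteases. Of 42 collagen genes, 3 were lower and 0 higher at an unadjusted p under 0.05, beside 2 and 0 of the 43 proteases and inhibitors, and the median differences were -0.03 and -0.06. The shares over all probe sets were 2.5% lower and 2.91% higher. A difference between these 2 sets was not tested.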

How the data were processed

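The deposited values, 22206 probe sets on 8 arrays, span 2.75 to 13.6 and were taken as log2 expression made by the authors. Per the submitters' processing notes Partek was used, while background correction, summarisation, scaling and build are among steps not given in the sources used here. Once sorted, any pair of arrays differed by no more than 0.0198, so they were used without further normalization. Symbols came from the platform annotation (19572 probe sets with 1 symbol, 2634 with none), and each member has 1 probe set. Groups came from the sample titles.

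Differences, exposed minus sham, were fitted over all probe sets with limma 3.58.1 in R 4.3.3 (lmFit, eBayes, no covariate, two-sided, Benjamini-Hochberg over all probe sets, threshold 0.05). Folds are 2 to the power of the absolute difference. On simulated arrays with 22206 probe sets, of which 200 were changed, 86.8% of 2-fold and 98.1% of 4-fold changes were recovered. These rates are for the simulated probe sets and were not worked out for the proteases and inhibitors. The median SD of these genes was 0.255 in exposed and 0.222 in sham mice, beside 0.176 and 0.134 over all probe sets. The rates may thus be too high for them. Changing 200 probe sets at once also eases the Benjamini-Hochberg adjustment, so the rates may be too high where few genes change. Alternatives were quantile normalization, median centring, brightness filters, trended and robust priors, array weights, a replicate block, and leaving out each mouse or exposed mice 2 and 4. Members, lists and alternatives were chosen with earlier results of these data known. Named are the TIMPs, the 4 MMPs and 4 ADAMTS genes of highest sham mean, and members at an unadjusted p under 0.05 or without overlap. Also named are those found of 16 genes fixed by name (all but Mmp15). The 3 of largest SD and those with a mouse far from its group were added. Examples outside this rule were chosen after their values were seen.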

Additional observations from a re-analysis of the deposited data

Results flagged for a closer look

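A gap between 1 mouse and the other 3 of its group that exceeds Dixon's 95% critical value was found in 8 of 86 groups over the 43 genes and in 1 of 28 over the marker lists, and about 1 in 20 groups would show this by chance. Exposed mouse 2 was low for Adamts14 (7.33, the others at 7.50), Adamts3 (6.56, the others 7.14 to 7.22) and Mmp19 (8.26, the others 9.20 to 9.29). Exposed mouse 4 was high for Mmp7 (7.62, the others 5.04 to 5.26) and low for Adamts15 (6.18, the others 6.69 to 6.71). Exposed mouse 3 was high for Mmp9 (6.50, the others 6.24 to 6.27), and exposed mouse 1 was low for Timp4 (4.52, the others 4.72 to 4.74). Sham mouse 4 was high for Mmp7 (6.37, the others 4.81 to 4.96) and low for the smooth muscle marker mean (10.60, the others 10.95 to 11.00).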

How the results depend on the processing

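The 43 genes had 0 adjusted calls under every alternative run. Quantile normalization, median centring and a trended or robust prior reversed no named gene and moved no count of members by over 1.5 times. Nor did removal of probe sets below the 25th or 50th brightness percentile (33 and 21 members kept, the others having no value there). The priors and filters leave each gene's difference as it was, so they could not reverse one. The sorted arrays already differed by no more than 0.0198, so quantile normalization and median centring could change little. Beside 0 higher at an unadjusted p under 0.05, array weights gave 1 (Adamts18) and reversed Mmp2 (-0.0607) and Timp4 (-0.000797). The replicate block gave 1 higher (Mmp7) and 3 lower (Adamts4, Adamts14 and Adamts16); same-numbered mice share only a number (correlations of 0.08, -0.238, 0.085 and 0.075). Without exposed mice 2 and 4 there were 2 higher at that p (Adamts5 and Adamts18), and 4 genes higher and 3 lower without overlap, with only 2 exposed mice left. Differences then reversed for Adamts1 (0.046), Adamts10 (-0.0118), Adamts13 (-0.0161), Mmp2 (-0.311), Mmp7 (-0.177), Mmp10 (-0.377), Mmp11 (-0.347), Timp1 (0.297), Timp2 (-0.0401), Timp3 (-0.112) and Timp4 (-0.0489). Leaving out 1 mouse at a time gave 0 to 1 adjusted calls over all probe sets (1 without exposed mouse 1). It gave 0 to 3 members higher at an unadjusted p under 0.05 (3 without exposed mouse 2), 1 to 4 lower (4 without exposed mouse 3), 0 to 2 higher and 1 to 3 lower without overlap, and a median difference of -0.0872 to -0.0469. These fits reversed 12 of the 27 named genes: Adamts1 (-0.535 to 0.0328), Adamts5 (-0.0886 to 0.162), Adamts13 (-0.0975 to 0.189), Mmp2 (-0.117 to 0.226), Mmp7 (-0.114 to 0.881), Mmp10 (-0.264 to 0.213), Mmp11 (-0.0661 to 0.73), Mmp13 (-0.126 to 0.0682), Mmp14 (-0.165 to 0.0427), Mmp19 (-0.376 to 0.019), Timp3 (-0.0357 to 0.148) and Timp4 (-0.0614 to 0.126). The causes were not tested. Signal over background limits the 15 dim genes.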
